A study of Mus musculus with 6 samples.

Results

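Thymic endothelial cells (ECs) that carried P-selectin were compared with and without Ly6C on their surface, as 2 libraries of Ly6C-Selp+ ECs against 2 libraries of Ly6C+Selp+ ECs. These 4 libraries were chosen by their sample labels from the 6 of the series. The other 2 came from Ly6C+Selp- ECs and served to show which genes had already changed when P-selectin was gained. The gain of P-selectin by Ly6C+ ECs is called the first step, and the loss of Ly6C by Selp+ ECs the last step. Subsets that follow each other in this order are an arrangement by surface markers, and no cells were followed over time.

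All 3 subsets were from thymi of untreated female wild-type C57BL/6 mice aged 4 to 6 weeks. The thymi were digested for 1 h at 37 °C with collagenase, dispase and DNase, and CD31+CD45-EpCAM- cells were sorted by Ly6C and P-selectin to a purity of at least 90%. The labels do not say whether the replicates came from separate animals or sorts, so p-values measure the spread between these libraries, which may be technical. RNA was sequenced and its abundance given per gene as FPKM (fragments scaled to transcript length and library size). The genes that define ECs were present. Pecam1, which encodes CD31, had an FPKM of 735.0 and 673.7 in Ly6C+Selp+ and of 866.6 and 810.6 in Ly6C-Selp+ ECs (replicates 1 and 2), and Cdh5, which encodes VE-cadherin, had 447.9 and 436.3 against 413.8 and 485.7. All 10 endothelial markers examined were at an FPKM of at least 1 in all 4 libraries.

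P-selectin on the vessel wall captures circulating progenitors by binding carbohydrate-bearing ligands, and the vessels around the corticomedullary junction are the known port of entry of progenitors into the thymus. Ly6C is a small lipid-anchored surface protein of many capillary and arterial ECs. High endothelial venules of lymph nodes make mucin-like ligands for the L-selectin of lymphocytes. Capillary ECs are otherwise known for the uptake of fatty acids and glycerol, and arterial ECs for Notch signalling and for gap junctions.

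Differences are given as Ly6C-Selp+ minus Ly6C+Selp+ ECs on the scale of log2(FPKM + 1), where a difference of 1 is about a doubling of FPKM for well-expressed genes and more than a doubling for low ones, whose change the scale understates. Of 24457 gene rows on chromosomes, the 11717 that reached an FPKM of 1 in 2 or more of the 6 libraries were tested with limma, and a gene was called at a Benjamini-Hochberg adjusted p below 0.05. Since 2 libraries against 2 cannot give an exact permutation p below 0.33, limma's adjusted p and the separation of the 4 libraries were used for single genes. The summed FPKM was 221458 to 300932 per library, the estimated depth was 1452476 to 2423171 fragments, and an FPKM of 0.37 to 0.652 stood for 3 fragments in the median gene, below which changes were not detectable. For short transcripts 3 fragments stand for a higher FPKM. The median gene was 0.14 higher at the last step as deposited and 0.00 after upper-quartile scaling, so the medians of gene groups are to be read against 0.14. As these were bulk samples, fewer cells that express a gene and less of its RNA per cell cannot be told apart.

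At the loss of Ly6C, 26 of the 11717 genes were called (0.222%), 11 higher (0.0939%) and 15 lower (0.128%) without Ly6C. For all 26, both libraries of either subset lay on 1 side of both of the other, which held for 41% of all tested genes. The genes that fell included Ly6c1 itself, the arterial genes Sema3g and Gja4, the capillary genes Rbp7, Btnl9, Aqp7 and Cxcl12, and the tight junction gene Cldn5. Those that rose included Glycam1, which encodes a mucin-like L-selectin ligand of high endothelial venules, and Ltbp2, Ctsh and Fgf23. Same-numbered libraries of different subsets deviated together, and with the replicate number as a block 229 genes were called (1.95%), 124 higher (1.06%) and 105 lower (0.896%), with all 26 among them. The balance between the directions depended on the scaling. After upper-quartile scaling 100 genes were called (0.853%), 25 higher (0.213%) and 75 lower (0.64%), and 25 of the 26 remained. Tmem158 did not (limma adjusted p = 0.054). Block and scaling together gave 298 (2.54%).

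**Figure D1:**
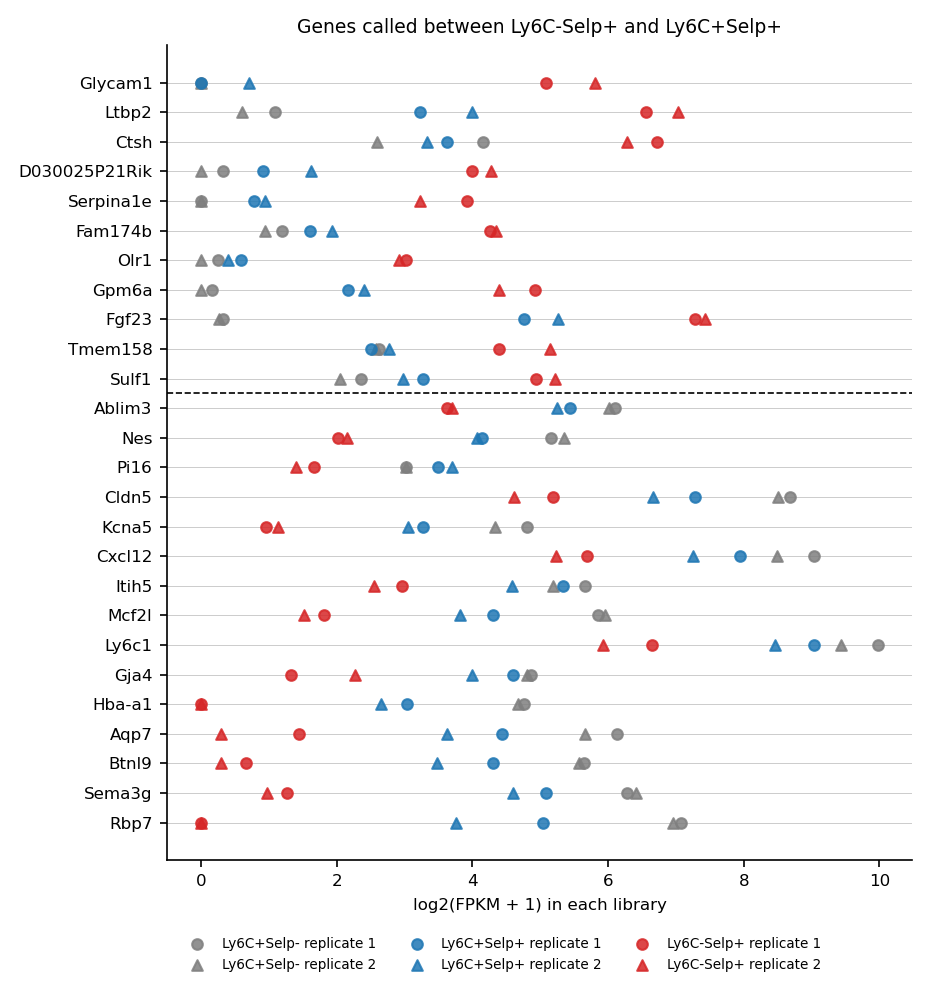
The 26 genes called between Ly6C-Selp+ and Ly6C+Selp+ ECs, ordered by their difference, with log2(FPKM + 1) of each of the 6 libraries on the horizontal axis. Grey points are Ly6C+Selp-, blue Ly6C+Selp+ and red Ly6C-Selp+ ECs, circles replicate 1 and triangles replicate 2, and the dashed line parts the 11 higher genes from the 15 lower ones. Red and blue points do not overlap for any gene.

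Among the genes that rose, Glycam1 (mm9 chr15:103393191-103395512) was nearly absent before the last step. Glycam1 had an FPKM of 0 in both Ly6C+Selp- libraries and of 0 and 0.635 with P-selectin. Without Ly6C it reached 33.1 and 55.0, where 28 and 85 fragments lay behind it. The 2 Ly6C-Selp+ libraries thus stood far above the other 4. The difference was 5.09 (standard error 0.40, limma adjusted p = 0.0026), with 5.09 within replicate 1 and 5.10 within replicate 2. Its first-step difference was 0.35, and the test of the last step against the first gave an adjusted p of 0.13 in limma and 0.036 with the replicate block.

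Ltbp2 (chr12:86124162-86217445), which encodes an extracellular matrix protein of the latent TGF-beta binding family, rose at both steps. Ltbp2 had an FPKM of 1.14 and 0.518, then 8.38 and 14.9, then 93.7 and 130.3 along the 3 subsets, with no overlap between any of the subsets. The last-step difference was 3.19 (standard error 0.35, limma adjusted p = 0.016), a ratio of 9.61 between the mean FPKM, and the first-step difference was 2.76 (limma adjusted p = 0.014). D030025P21Rik overlaps the 5′ start of Ltbp2, a gene of the minus strand, by 694 bases in the files' coordinates, and RefSeq places the pair on opposite strands. It went from 0.895 and 2.08 to 15.0 and 18.3, and as strand was not known to be used in counting, part of its reads may be those of Ltbp2.

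Fgf23 (chr6:127022920-127032314), a secreted regulator of phosphate balance, rose from 26.1 and 37.4 in Ly6C+Selp+ to 155.3 and 172.0 in Ly6C-Selp+ ECs, a difference of 2.35 (standard error 0.27, limma adjusted p = 0.021). It was at 0.255 and 0.204 in Ly6C+Selp- ECs, so the larger part of its rise on this scale, 4.71, fell on the first step. Ctsh (chr9:89949105-89970933), which encodes the lysosomal protease cathepsin H, behaved otherwise. Ctsh was at 16.8 and 5.03, then at 11.3 and 9.10, which overlapped, and then at 105.1 and 76.4. The last-step difference was 3.02 (standard error 0.46, limma adjusted p = 0.046), a ratio of 8.90, beside 0.10 at the first step.

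Olr1, which encodes the oxidised-LDL receptor LOX-1, was at 0.499 and 0.319 in Ly6C+Selp+ and at 7.14 and 6.6 in Ly6C-Selp+ ECs (difference 2.48, limma adjusted p = 0.042). Tmem158 was at 4.69 and 5.8 against 20.1 and 34.4 (difference 2.14, limma adjusted p = 0.046). Their first-step differences were 0.37 and 0.03, neither of them called. The remaining higher genes had differences between 1.96 and 2.71. They were Sulf1, an endosulfatase that trims heparan sulfate outside the cell, with an FPKM of 8.64 and 6.87 against 29.8 and 36.3; Gpm6a, a membrane glycoprotein best known from neurons, with 3.5 and 4.28 against 29.5 and 20; Fam174b; and Serpina1e, an antitrypsin-family inhibitor with near-identical copies, whose value is therefore uncertain. Gpm6a was the only one of these 4 that was also called at the first step (2.21, limma adjusted p = 0.039).

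Among the genes that fell, Rbp7 (chr4:148823811-148829077), a retinol-binding protein of capillary ECs, had the largest difference. Rbp7 was at 133.3 and 123.7, then at 32.1 and 12.5, and was listed at 0 in both Ly6C-Selp+ libraries. The last-step difference was -4.40 (standard error 0.40, limma adjusted p = 0.006), and the first-step difference -2.62 (limma adjusted p = 0.039), so that the gene fell at both steps. Sema3g (chr14:32031059-32042697), a secreted semaphorin of arterial ECs, was at 76.6 and 84.4, then 32.8 and 23.2, then 1.40 and 0.965, in the same order of subsets. Its last-step difference was -3.72 (standard error 0.28, limma adjusted p = 0.0026), while its first step of -1.51 was not called (adjusted p = 0.075).

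Btnl9, a butyrophilin-like membrane protein, went from 18.8 and 10.1 to 0.591 and 0.229 (difference -3.41, limma adjusted p = 0.011), with 3 and 2 fragments behind the Ly6C-Selp+ values of Btnl9. Aqp7, a channel for water and glycerol, went from 20.7 and 11.3 to 1.73 and 0.223 (-3.16, limma adjusted p = 0.041). In both, the Ly6C-Selp+ libraries were close to the limit set by depth and well below the others. Ly6c1 (chr15:74874448-74879267), the gene behind the sort, fell from 522.0 and 350.9 to 99.6 and 59.7, a difference of -2.46 (standard error 0.33, limma adjusted p = 0.038). It was thus still abundant in the Ly6C-Selp+ libraries, and it had been at 1009.8 and 691.5 in Ly6C+Selp- ECs. The near-identical Ly6c2 had at most 4.80 in any library, and reads may be split between the pair. The last-step difference of Ly6c2 was 1.24, opposite in sign to that of Ly6c1, and it was called in neither fit.

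Gja4, which encodes a gap junction connexin, was at 28.1 and 27.0 in Ly6C+Selp-, 23.3 and 14.9 in Ly6C+Selp+ and 1.51 and 3.83 in Ly6C-Selp+ ECs (-2.50, limma adjusted p = 0.044). Itih5, a hyaluronan-binding matrix protein, was at 39.5 and 23.0 against 6.84 and 4.85 (-2.20, limma adjusted p = 0.046). For these genes the first-step difference was small, -0.54 and -0.46. Cxcl12 (chr6:117118553-117131386), a chemokine for cells that carry CXCR4, fell from 244.6 and 151.6 to 50.6 and 36.8 (-2.13, limma adjusted p = 0.042), and had been at 521.5 and 360.2 in Ly6C+Selp- ECs. Cldn5 (chr16:18776940-18778355), the main claudin of endothelial tight junctions, fell from 154.1 and 100.5 to 35.4 and 23.4 (-2.07, limma adjusted p = 0.041), having been at 409.7 and 363.9. Their first-step differences of -1.17 and -1.63 had the same sign and were not called (limma adjusted p = 0.24 and 0.067).

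The other lower genes were the guanine nucleotide exchange factor Mcf2l (-2.40, also called at the first step with -1.85), the potassium channel Kcna5 (-2.11), Pi16 (-2.06), the intermediate filament gene Nes (-2.02), the actin-binding Ablim3 (-1.68) and 1 of the rows of Hba-a1 (-2.84). The haemoglobin row was at 26 and 24.4, then 7.18 and 5.28, then listed at 0, rested on few fragments and has a near-identical copy, so it is uncertain. Haemoglobin RNA is a sign of red blood cells. Pi16, a peptidase inhibitor expressed by fibroblasts as well, had a first-step difference of 0.57. Pi16 was at 7.17 and 7.12, then at 10.3 and 12, then at 2.18 and 1.65 along the subsets.

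The promoters of Glycam1 and Ltbp2, the pair with the largest rise, and of Sema3g and Rbp7, the pair with the largest fall, are printed below as RefSeq gives them on GRCm38.p6, a later build than the mm9 of the files. Each window runs 5′ to 3′ in the direction of the gene, from 250 bases before its start to 50 after it. Capitals mark the core of the binding site of RBPJ, the DNA-binding factor of Notch signalling, searched as TGGGAA on both strands.
Glycam1, chr15:103565032-103565331 (minus strand): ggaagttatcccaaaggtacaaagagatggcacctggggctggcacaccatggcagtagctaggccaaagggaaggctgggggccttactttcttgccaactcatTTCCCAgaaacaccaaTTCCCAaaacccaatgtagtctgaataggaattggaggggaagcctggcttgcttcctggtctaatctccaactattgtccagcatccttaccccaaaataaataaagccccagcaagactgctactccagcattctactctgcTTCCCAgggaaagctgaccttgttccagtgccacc
Ltbp2, chr12:84876442-84876741 (minus strand): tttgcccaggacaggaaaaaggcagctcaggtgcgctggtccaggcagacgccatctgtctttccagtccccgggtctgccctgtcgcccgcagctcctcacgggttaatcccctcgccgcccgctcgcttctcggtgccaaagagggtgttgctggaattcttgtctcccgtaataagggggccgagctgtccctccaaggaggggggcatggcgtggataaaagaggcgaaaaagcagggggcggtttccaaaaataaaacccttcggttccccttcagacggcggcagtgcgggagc
Sema3g, chr14:31217623-31217922 (plus strand): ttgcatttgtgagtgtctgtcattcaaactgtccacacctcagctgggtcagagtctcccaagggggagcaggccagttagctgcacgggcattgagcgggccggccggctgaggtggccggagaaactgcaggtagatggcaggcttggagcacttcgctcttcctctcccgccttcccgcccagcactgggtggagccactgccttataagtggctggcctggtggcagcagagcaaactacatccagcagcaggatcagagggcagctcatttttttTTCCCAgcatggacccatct
Rbp7, chr4:149454919-149455218 (minus strand): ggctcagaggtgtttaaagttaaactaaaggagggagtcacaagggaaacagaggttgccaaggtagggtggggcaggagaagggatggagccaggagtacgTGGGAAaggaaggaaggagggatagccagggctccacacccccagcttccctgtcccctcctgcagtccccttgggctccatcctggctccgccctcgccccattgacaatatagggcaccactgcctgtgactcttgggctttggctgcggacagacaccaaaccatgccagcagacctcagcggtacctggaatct

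The core occurred 3 times in the Glycam1 window, once in those of Sema3g and Rbp7, and not in that of Ltbp2. Of the 26 called genes 22 had a window in the RefSeq table, and 4 did not (Ablim3, Ctsh, Sulf1 and Tmem158). Among the lower genes, 10 of 21 windows of 14 genes (47.6%) held the core, and 2 of 9 windows of 8 higher genes (22.2%) did, against 25.6% of the 32851 windows in the table. Several windows belonged to the same gene, 6 of them to Mcf2l. The lower genes with the core were Btnl9, Cxcl12, Hba-a1, Itih5, Kcna5, Mcf2l, Rbp7 and Sema3g. The consensus site of NF-kB was in none of these 30 windows and in 4.51% of all. These are matches of letters and not measured binding.

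Of the 26 genes, 5 had a first-step difference below 0.5 in size and 6 were also called at the first step, at which 46 genes were called in all (0.393%), 38 higher (0.324%) and 8 lower (0.0683%). With the block the first step gave 183 (1.56%), 99 higher (0.845%) and 84 lower (0.717%). Both steps are measured against the same Ly6C+Selp+ libraries, so their values are given side by side and are not independent. Whether a gene changed more at 1 step than at the other was tested directly. Limma called 5 genes for this difference (0.0427%), and none of the 26 was among them. An unadjusted p below 0.05 was found for 16 of the 26 and for 658 of the 11717 tested genes. The 26 were chosen by their last step, which is part of this difference, so that count is no support. With the replicate block it called 15 (0.128%), and of the 26 only Glycam1.

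**Figure D2:**
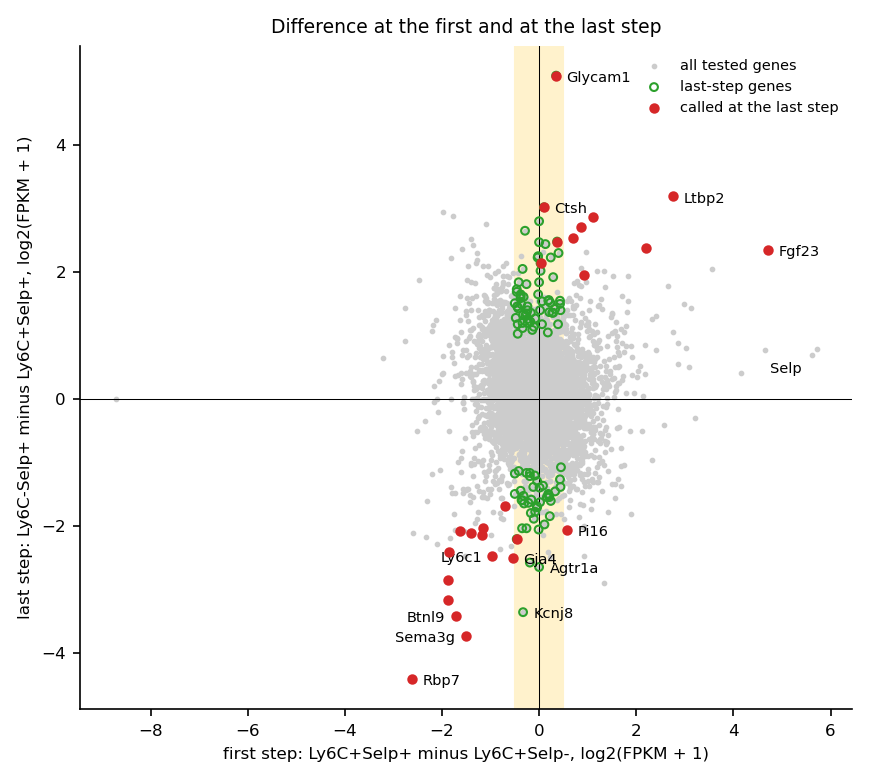
Difference at the first step (horizontal) and at the last step (vertical) on the log2(FPKM + 1) scale, for the 11717 tested genes (grey), the 26 called at the last step (red) and the 103 last-step genes (green rings). The shaded band holds first-step differences below 0.5. Both axes use the Ly6C+Selp+ libraries, with opposite sign. Glycam1 and Ctsh lie in the band, whereas Fgf23, Ltbp2 and Rbp7 moved at both steps, and Selp at the first.

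Genes that moved at the last step and not at the first were also sought by a fixed rule. A last-step gene differed by at least 1 in the same direction within replicate 1 and within replicate 2, with the 4 libraries apart, a mean FPKM of 5 or more where it was higher, and a first-step difference below 0.5. The rule found 103 genes (0.879%), 61 higher (0.521%) and 42 lower (0.358%) without Ly6C. The same rule with the steps exchanged found 59 (0.504%), 34 of them higher (0.29%) and 25 lower (0.213%). Since their values chose them, they are described here, each with the p of its own fit. Limma called 5 of them (Glycam1, Ctsh, Olr1, Tmem158 and Itih5) and 68 with the block, 40 higher and 28 lower. The difference between the steps was called for none of the 103, for Glycam1 alone with the block, and had an unadjusted p below 0.05 in 56. Of all 11717 tested genes, 658 had such a p. The rule chose the 103 by the same differences that these fits test, so the counts among them are no support. The rule has edges, as Adra2a was kept with a first step of -0.499 and Leprel2 left out with 0.503, and Ccr7 was kept with a within-replicate difference of 1.000 and Lhfp left out with -0.995.

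Some of the higher last-step genes were near 0 in the Ly6C+ subsets. Gcnt1, the core 2 enzyme that branches O-glycans and so builds the carriers of selectin ligands, was at 0.762 and 0.248 in Ly6C+Selp+ and at 7.49 and 4.70 in Ly6C-Selp+ ECs (2.23, limma adjusted p = 0.12, with the block 0.023). Art4, an ADP-ribosyltransferase of the cell surface, was at 0.772 and 0.370 against 6.74 and 5.92 (2.23, limma adjusted p = 0.076, with the block 0.024). Wipf3, an actin regulator, was at 0.323 and 1.03 against 6.44 and 7.75 (2.30, limma adjusted p = 0.065, with the block 0.021). For each of these genes the 2 Ly6C-Selp+ libraries lay well above all 4 others.

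Fxyd6, a regulator of the sodium pump, was at 0.265 and 2.88 against 13.2 and 12.5 (2.65, with the block limma adjusted p = 0.035). Hamp, which encodes the iron hormone hepcidin, and the lectin gene Cd209d were listed at 0 in the 4 libraries of Ly6C+ ECs. In Ly6C-Selp+ ECs Hamp was at 12.2 and 2.68, and Cd209d at 8.20 and 2.35. Behind them lay 5 and 2 fragments for Hamp and 12 and 6 for Cd209d, and the authors' 95% bounds of Hamp in replicate 2 were 0 and 6.47, so that its value there was at the limit of depth. Both were several times higher in replicate 1 than in replicate 2. Cd2, a receptor of T cells, was at 2.25 and 1.43 against 11.9 and 6.86 (1.84, with the block limma adjusted p = 0.024). Other higher last-step genes, of which Edn1, Hs3st1, Bmp6, Fbln5, Lef1 and Ikzf1 are named here after their values were seen, were the vasoconstrictor gene Edn1 (1.55), the heparan sulfate sulfotransferase gene Hs3st1 (1.40), Bmp6 (1.05), Fbln5 (1.22), and the lymphocyte genes Lef1 (1.69), Cd4 (1.35), Cd79a (1.61), Dntt (1.20) and Ikzf1 (1.46). With the block Edn1, Hs3st1, Fbln5 and Lef1 were called, and Bmp6, Cd4, Cd79a, Dntt and Ikzf1 were not. Further leukocyte genes were among the higher last-step genes, such as Ccr7 (1.73), Cd27 (1.33), Cd48 (1.81) and Vav1 (1.40), also named after their values were seen. These were called in neither fit. Each was higher in Ly6C-Selp+ replicate 1 than in replicate 2, as Cd48 with 10.5 and 2.2 and Vav1 with 9.86 and 3.4.

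The lower last-step genes included genes of mural cells, the pericytes and smooth muscle cells that wrap vessels. Kcnj8 and Abcc9, which encode the 2 subunits of the vascular ATP-sensitive potassium channel, were at 26.5 and 10.7 against 0 and 2.08, and at 31.4 and 16.3 against 4.46 and 5.16. Rgs5, a pericyte regulator of G proteins, was at 346.4 and 113.9, then 284.4 and 137.0, then 48.6 and 45.4 (-2.05, limma adjusted p = 0.17, with the block 0.023). In all 3 genes both Ly6C-Selp+ libraries were below the other 4, and replicate 1 was above replicate 2 in both Ly6C+ subsets. Pdgfrb, the pericyte receptor for PDGF-B, was at 33.5 and 25.1 against 6.40 and 9.43, and Notch3 at 45.6 and 43.7 against 9.40 and 18.6. The angiotensin receptor gene Agtr1a (-2.64), the metalloreductase gene Steap4 (-2.57), the vitronectin gene Vtn (-1.64), Kcne4 (-1.79) and Vstm4 (-1.88) also fulfilled the rule. Of these 10 genes, 9 were called with the block and Kcne4 was not (limma adjusted p = 0.093), and none without it. Of the 42 lower last-step genes, 5 were in the list of 10 mural cell markers. Of all tested genes, 0.358% fulfilled the rule in this direction. The rule chose these genes by their values, so the count is no support.

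Lower last-step genes of other kinds were Itih5, Rasd1, Igf2 and Rasgrf2, and the capillary genes Cd36 and Fabp4. Rasd1, a small GTPase induced by glucocorticoids, was at 26.1 and 26.9, then 19.2 and 25.1, then 2.86 and 7.18 (-2.03, with the block limma adjusted p = 0.015). Igf2, the insulin-like growth factor, was at 12 and 7.97 against 1.40 and 2.17 (-1.97, with the block limma adjusted p = 0.023). Fabp4, a fatty acid carrier of capillary ECs and among the most abundant messages, was at 4787.4 and 3012.9, then 3831.0 and 2897.9, then 1716.2 and 1292.4 (-1.16, limma adjusted p = 0.22, with the block 0.032).

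**Figure D3:**
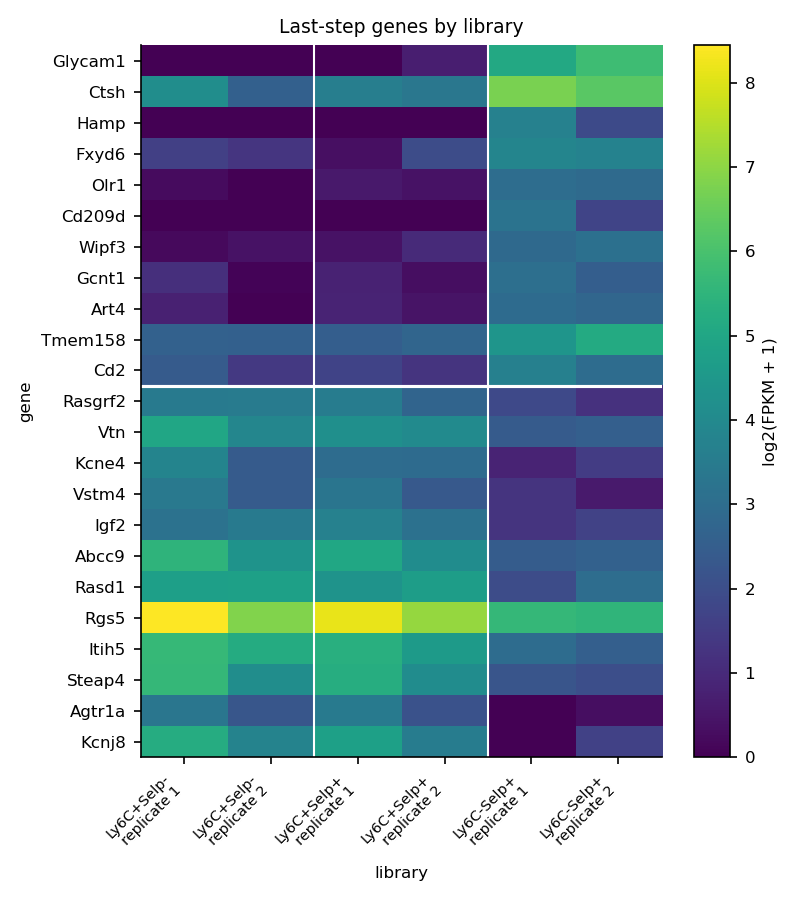
log2(FPKM + 1) of last-step genes (rows) in the 6 libraries (columns), the higher above and the lower below the white line, from those named by the rule for last-step genes. The 4 columns of Ly6C+ ECs resemble each other and the 2 columns of Ly6C-Selp+ ECs differ from them, as the rule required. Rgs5, Abcc9, Steap4 and Kcnj8 are brighter in replicate 1 than in replicate 2 of the Ly6C+ subsets.

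Genes of known function were then followed as lists, each by its called members and by its median difference, beside 0.14 for all tested genes. The lists had been written with earlier results of these data known and support no direction on their own. The sort list of 6 genes had a median of 0.61, with Ly6c1 its only called member in either fit. Of 20 capillary genes, 16 were lower and 15 had libraries that did not overlap in that direction, against 13.3% of all tested genes. Limma called 3 (Btnl9, Aqp7 and Cxcl12), and 15 with the block, all lower, against 0.896% of all genes called lower in that fit. The median was -1.18, and it was -0.72 at the first step. Gpihbp1, which anchors lipoprotein lipase to the capillary wall, was at 489.6 and 391.9, then 161.3 and 107.3, then 59.3 and 36.5 along the subsets. Its last-step difference was -1.48 (limma adjusted p = 0.12, with the block 0.0098). The first-step difference was larger, -1.73 (limma adjusted p = 0.064, with the block 0.004). Rgcc, a cell cycle regulator, was at 86.3 and 45.9 against 14.6 and 10.2 (-2.28, limma adjusted p = 0.05 rounded and not called, with the block 0.0017). The fatty acid translocase gene Cd36 was at 350.3 and 193.1 against 143.8 and 91.5 (-1.17, with the block limma adjusted p = 0.02), and Pparg, Lpl, Fabp5, Aplnr, Apln, Tcf15, Timp4 and Slc9a3r2 were called with the block as well. Aqp1, the water channel, was at 1440.2 and 1560.3 against 1601.1 and 1909.7 and was not called.

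Arterial genes and genes of the Notch pathway had a median of -0.73, with 18 of 24 lower. Limma called Gja4 and Sema3g, and with the block also Gja5, Jag2, Notch4 and Alpl, all lower. Of all tested genes, 0.128% were called lower by limma and 0.896% with the block. Gja5, which encodes another connexin, was at 14.5 and 4.05 against 1.22 and 0.354 (-2.35, limma adjusted p = 0.13, with the block 0.032). The Notch ligand gene Jag2 was at 27.0 and 24.6 against 8.19 and 11.3, and the endothelial receptor gene Notch4 at 29.1 and 27.3 against 13.0 and 13.8, with differences of -1.33 and -1.02. In contrast, Notch1 was at 33.2 and 40.9 against 29.5 and 43.5, with overlapping libraries. Venous and venular genes had a median of 0.57, with 12 of 16 higher and none called by limma. In 10 the libraries did not overlap in that direction, against 27.7% of all tested genes. With the block 3 were called higher, Vwf and Bgn among them, against 1.06% of all tested genes. Bgn had also risen at the first step (1.58, limma adjusted p = 0.046). Vwf, the von Willebrand factor gene, was at 163.5 and 258.8 against 668.7 and 1094.9 (2.05, limma adjusted p = 0.05 rounded and not called, with the block 0.0028).

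Of 18 tested genes of leukocyte homing, 15 were higher, with a median of 0.47. In 11 the libraries did not overlap in that direction, against 27.7% of all tested genes. Limma called Glycam1, and with the block also Bst1 (1.78), an ectoenzyme of the cell surface, higher and Podxl lower. Of all tested genes, limma called 0.0939% higher and 0.128% lower, and with the block 1.06% higher and 0.896% lower. Bst1 had risen by more at the first step (2.65, limma adjusted p = 0.0059). Podxl, a sialomucin of the luminal membrane, was at 108.2 and 91.9 against 33.6 and 38.5 (-1.45, limma adjusted p = 0.065, with the block 0.014). It thus moved opposite to Glycam1. Cd34, another sialomucin, was at 286.7 and 239.0 against 332.2 and 253.1 and its libraries overlapped. The selectin gene Selp was at 313.1 and 415.6 against 525.8 and 657.1 (0.70, limma adjusted p = 0.45), after a first-step difference of 5.61. Of 13 tested chemokine genes and decoy receptors 9 were lower, with a median of -0.79. In 4 the libraries did not overlap in that direction, against 13.3% of all tested genes. Limma called Cxcl12, and with the block also Cx3cl1 (-1.15) and Cxcl1 (-1.32) lower and the scavenger receptor gene Ackr3 (1.63) higher. The shares called over all tested genes are those given for the homing genes. Ackr3 was at 34.1 and 27 in Ly6C+Selp- ECs, then at 14.7 and 9.35, then at 37.1 and 40.1, so that its level without Ly6C was near that before the gain of P-selectin. Its first-step difference was -1.30 (limma adjusted p = 0.14, with the block 0.032), and the difference between the steps was 2.93 (0.24, with the block 0.045).

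The remaining pathway lists held few called genes. Of all tested genes, limma called 0.0939% higher and 0.128% lower, and with the block 1.06% higher and 0.896% lower. In the VEGF and angiopoietin list (median -0.23) limma called none of 15 and with the block Esm1, which was at 15.5 and 5.38 against 3.05 and 0.272 (-2.18, adjusted p = 0.22, with the block 0.023). In the BMP and TGF-beta list (0.03) it called none of 22, and with the block Bmp4 higher (1.34) and Id1 lower (-1.04). Of 18 genes of the LTbR and NF-kB pathway, which is known to act in high endothelial venules, 16 were higher, with a median of 0.21. None was called in either fit. In 11 the libraries did not overlap in that direction, against 27.7% of all tested genes. Nfkbia, a target gene of NF-kB, was at 600.3 and 547.4 against 628.0 and 689.4.

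Of 20 genes of antigen presentation and interferon response 18 were higher (median 0.44). In 14 the libraries did not overlap in that direction, against 27.7% of all tested genes. Limma called none, and with the block H2-Eb1 (1.37) and the ubiquitin-like Ubd (1.63), against 1.06% of all tested genes called higher. Ubd was at 55.1 and 65.4 against 217.1 and 162.9. Of 14 junction genes (0.02) limma called Cldn5, and with the block Jup (-1.15), the plakoglobin gene, both lower. Of all tested genes, 0.128% were called lower by limma and 0.896% with the block. Jup had fallen by more at the first step (-1.60, limma adjusted p = 0.057, with the block 0.0085). Cdh5 and Esam had differences of 0.02 and 0.01. Matrix and basement membrane genes (-0.38) had 14 of 18 lower, none called, and Bgn higher (1.22) with the block. In 10 the libraries did not overlap in the lower direction, against 13.3% of all tested genes. Immediate early genes (-0.09, 16 tested) and cell cycle genes (0.44, 15 tested) had no called member in either fit. After upper-quartile scaling the medians of the BMP and TGF-beta, junction and endothelial lists, 0.03, 0.02 and 0.01, were -0.12, -0.14 and -0.14, whereas no other list changed the sign of its median.

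**Figure D4:**
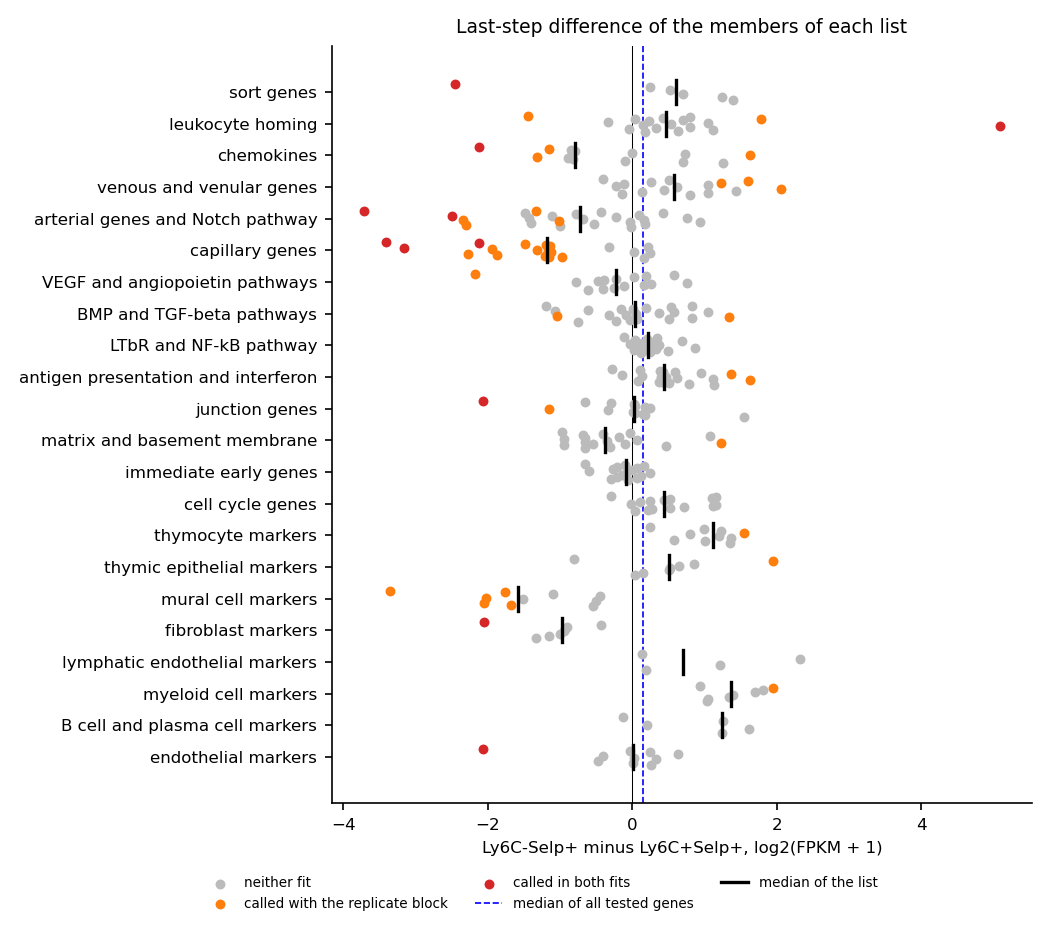
Difference between Ly6C-Selp+ and Ly6C+Selp+ ECs (horizontal, log2(FPKM + 1)) of each tested member of the lists, 1 point per gene. Red points were called by limma in both fits, orange points only with the replicate block and grey points in neither. Black bars are list medians and the blue dashed line is the median of all tested genes, 0.14. Capillary (-1.18) and mural cell genes (-1.59) lie furthest to the left and myeloid markers (1.36) furthest to the right. Platelet markers, with 1 tested member, are not drawn.

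Markers of other cell types moved between the same libraries, in both directions. Of 10 thymocyte markers tested all 10 were higher in Ly6C-Selp+ ECs (median 1.11), and their summed FPKM over the whole list was 74.7 and 45.2 in Ly6C+Selp+ and 182.0 and 87.4 in Ly6C-Selp+ ECs. All 8 myeloid markers tested were higher (1.36), with sums of 116.6 and 45.9 against 486.6 and 97.3. Both sums were highest in Ly6C-Selp+ replicate 1. In Ly6C+Selp- ECs the thymocyte sums were 109.4 and 29.1, and the myeloid sums 295.8 and 51.4. Replicate 1 there was thus above Ly6C-Selp+ replicate 2 in both lists, so high sums were not particular to Ly6C-Selp+ ECs. The first-step medians were -0.12 and -0.60. The lysozyme gene Lyz2 was at 55.7 and 22.4 against 295.6 and 46.6, and Ptprc, which encodes the CD45 used to exclude blood cells, at 6.05 and 4.47 against 28.9 and 7.81. With the block limma called Cd3g (1.54) and Fcer1g (1.94), against 1.06% of all tested genes called higher, and without it no marker of either list. The part of such cells in the differences of Cd2, Cd4, Cd79a, Dntt, Lef1, Ikzf1, Ccr7, Cd27, Cd48, Vav1, H2-Eb1 and Ctsh was not tested.

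Of 5 tested B cell and plasma cell markers 4 were higher (1.24), with sums of 16.1 and 8.58 against 26.2 and 18.1 and none called. Of 8 thymic epithelial markers 7 were higher (0.51), with sums of 25.1 and 17.7 against 53.4 and 14.6. In Ly6C+Selp- ECs these sums were 50.1 and 21.8. Krt14 was called with the block (1.94), against 1.06% of all tested genes called higher. Epcam was at 1.13 and 0.724 against 4.32 and 0.417, higher in replicate 1 and lower in replicate 2. Lymphatic endothelial markers summed to 12.4 and 9.91 against 43.2 and 14.1, with none of the 4 tested called. In Ly6C+Selp- ECs they summed to 24 and 18.7, both above Ly6C-Selp+ replicate 2. Lyve1 was at 0 and 0.112 against 12.4 and 1.07, Prox1 at 0.534 and 1.09 against 3.05 and 3.22, and Ccl21a was listed at 0 in all 6 libraries. Of 6 platelet markers only Pf4 was tested (-1.26) and was not called.

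In the opposite direction, all 10 mural cell markers were lower (-1.59), with sums of 625.2 and 476.2 in Ly6C+Selp+ and 183.8 and 263.8 in Ly6C-Selp+ ECs. In Ly6C+Selp- ECs the mural sums were 630.3 and 270.9, so replicate 2 there was near Ly6C-Selp+ replicate 2. With the block limma called 5 of the mural markers (Pdgfrb, Rgs5, Notch3, Abcc9 and Kcnj8), against 0.896% of all tested genes called lower, and none without it. The contractile genes Tagln and Myh11 were at 114.5 and 137.4 against 77.2 and 100.5, and at 26.7 and 40.8 against 14.8 and 32.9, and were not called. All 8 fibroblast markers were lower (-0.98), with sums of 462.1 and 284.9 against 180.8 and 181.8, and limma called Pi16. Their sums in Ly6C+Selp- ECs were 281.5 and 173.1, with a first-step median of 0.79. Fibroblast markers were thus highest in Ly6C+Selp+ ECs, and the low level was not particular to Ly6C-Selp+ ECs. Endothelial markers had a median of 0.01 and sums of 2291.3 and 2133.5 against 2325.5 and 2416.3. Whether mural cells attached to ECs took part in the fall of these genes was not tested.

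**Figure D5:**
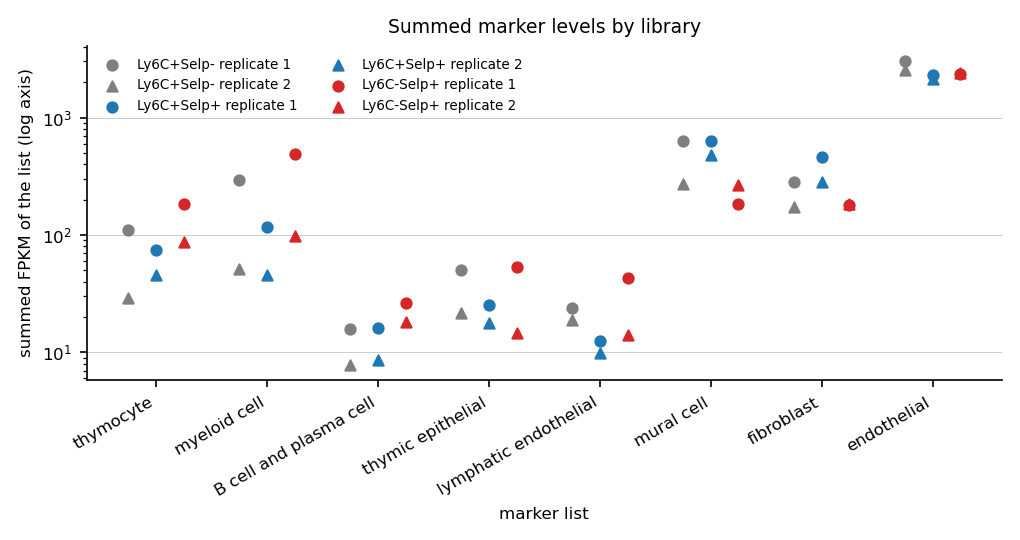
Summed FPKM of each marker list (log axis) in the 6 libraries, grey Ly6C+Selp-, blue Ly6C+Selp+ and red Ly6C-Selp+ ECs, circles replicate 1 and triangles replicate 2. Ly6C-Selp+ replicate 1 is the highest library for thymocyte, myeloid and lymphatic markers, and both Ly6C-Selp+ libraries are lower than both Ly6C+Selp+ libraries for mural cell and fibroblast markers. Endothelial markers stay between 2133.5 and 3044.4.

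Leaving out 1 library at a time left few genes called. Only Glycam1 and Sema3g were called in all 6 such fits, Rbp7 in 5, Btnl9 in 4 and Fgf23 and Ltbp2 in 3. Without Ly6C-Selp+ replicate 1, the library with the highest leukocyte markers, 6 genes were called, 5 of them among the 26, and without Ly6C-Selp+ replicate 2 only 2. Without Ly6C+Selp+ replicate 1 or replicate 2 there were 4 and 14, and without replicate 1 or replicate 2 of Ly6C+Selp- ECs there were 8 each. In each such fit a lone library was taken to vary as the other subsets do.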

How the data were processed

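Thymic ECs of 3 sorted subsets were sequenced in 2 libraries each. The authors deposited FPKM values per gene with 95% bounds, on mm9. The submitters' processing notes name CASAVA 1.8, TopHat2 2.0.10, Cufflinks 2.1.1 and Cuffdiff, whose version is not given in the sources used here. FPKM are not counts, so log2(FPKM + 1) was fitted with limma 3.58.1 in R 4.3.3 with a trend, over all 6 libraries and with Benjamini-Hochberg adjustment. Left out were 95 rows of spike-ins and reporters. Fragments were estimated from the bounds and cover counting error only. Deviations of same-numbered libraries from their subset means correlated at 0.20, 0.31 and 0.18, so the replicate number was also fitted as a block. On simulated data the fit recovered 147 of 200 changed genes with 4 false calls, and the block 140 with 0. The simulated libraries had independent noise of capped spread and no replicate effect. Large changes were planted, and only in genes above a low level. These rates therefore do not carry over to the real libraries, where same-numbered libraries deviated together, nor to genes near 0. Named were all called genes, of the last-step genes the 12 higher and 12 lower with the largest smaller within-replicate difference, of the genes called only with the block the 10 largest each way, the sort genes, and of each list the called members and up to 4 of the most abundant. Members and lists were chosen with earlier results of these data known. Other pseudocounts, filters, scalings and left-out libraries were tried. Some genes are not reported here.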

Additional observations from a re-analysis of the deposited data

Results flagged for a closer look

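The difference between the steps, tested by limma over all genes, was called for 5 genes. It was -4.93 for Ackr1, -4.91 for Selp, -3.74 for Sele and -3.88 for Gm16548, where a negative value is a smaller change at the loss of Ly6C than at the gain of P-selectin, and 8.72 for the small nucleolar RNA gene Snord22. Selp is the gene behind the sort. None of these 5 was called at the last step.

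The row of the red fluorescent protein mRFP, which was left out of the tests, held values above 0 in wild-type mice. Its FPKM was 18.2 and 1.83 in Ly6C+Selp- replicates 1 and 2, 23.7 and 5.31 in Ly6C+Selp+ replicates 1 and 2, and 28.3 and 3.23 in Ly6C-Selp+ replicates 1 and 2. The authors' 95% bounds reached 0 in Ly6C+Selp- replicate 2 alone. The source of these reads was not tested.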

How the results depend on the processing

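The count of genes called at the last step, 26 with 11 higher and 15 lower, depended on the fit. With the replicate block it was 229 (124 and 105), with upper-quartile scaling 100 (25 and 75), with both 298 (121 and 177), with quantile normalization 90 (22 and 68), without a trend 10 (6 and 4) and with the 4 libraries compared alone 7 (5 and 2). Without a filter on low values limma called 0 (0 and 0), beside 1354 genes with an unadjusted p below 0.05. A pseudocount of 0.1 left 4 higher genes. Leaving out 1 library gave 2 to 14 genes, 1 to 6 higher and 1 to 8 lower. The step difference was called for 2 genes without the filter, 15 with the block, 25 with block and scaling, 1 without a trend and 1 to 4 without 1 library. The first step gave 12 without the filter, 98 with scaling, 103 with quantile normalization, 183 with the block, 292 with block and scaling, 15 without a trend and 12 to 33 without 1 library. The last-step rule gave 78 to 465 genes without 1 library, since it then rests on 1 within-replicate difference. Epcam turned to -0.44 without Ly6C-Selp+ replicate 1, and leaving out 1 library moved it between -0.44 and 1.47. Of the other values of single genes under an alternative, 717 kept direction and side of the threshold, 100 were called only there and 201 only in the fit reported, and of the list medians 232 moved by less than the spread and 89 by more. The cause of these changes was not tested. Beside those named, the block ended no call of the 26 genes. Values under 3 fragments, an FPKM of 0.37 to 0.652 in the median gene, were limited by depth.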
